A study of Homo sapiens with 2 samples.

Results

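The nuclear-encoded genes of the mitochondrial respiratory chain and of the ATP synthase were examined in the C-to-U edit sites of 2 long-read libraries. The genes were chosen by name: a locus of the deposited isoform annotation was assigned to the GENCODE protein-coding gene with which it shared the most exonic bases on the same strand, and a nuclear gene was kept when its symbol started with NDUF, SDHA, SDHB, SDHC, SDHD, UQCR, COX and a digit, ATP5F1, ATP5M or ATP5P, or was CYC1 or CYCS. Of 112 such symbols in GENCODE, 93 had a locus, on 95 loci, out of 10830 protein-coding genes assigned in all. The 19 symbols with no assigned locus were not analysed here. Edit sites were listed for 90 of the 93 genes, in both libraries for 85 of them. COX18, NDUFA3 and NDUFS8 had a locus but no listed site, as did a second locus each of NDUFS1 and NDUFV3. UQCRQ and ATP5ME were listed only in the anti-RBFOX2 library, and NDUFA4L2, NDUFB1 and NDUFB9 only in the enzyme-only control.

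Both libraries came from cells labelled HEK293XT, a line of the HEK293 family of human embryonic kidney origin, in culture. The labels describe one as an in situ RBFOX2-APOBEC1 STAMP library and the other as APOBEC1 only, where STAMP is the marking of RNA by a deaminase brought to an RNA-binding protein. By the study's methods, cells were fixed with methanol or paraformaldehyde, with a permeabilisation step described for paraformaldehyde only. The fixative of these 2 libraries was not established here. The cells received a fusion of the cytidine deaminase APOBEC1 with a nanobody against rabbit IgG. This followed an antibody against the splicing regulator RBFOX2 (here the anti-RBFOX2 library) or was done without it (here the enzyme-only control). The labels name another library kit than these methods, so the tables may come from another run, and neither the antibody nor the nanobody is named in the labels. The sites of the enzyme-only control are the background against which each value below is set. There was 1 library of each kind, so every comparison is between 2 libraries, no p-value is given, and the intervals are exact Clopper-Pearson 95% intervals that cover counting error only.

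The respiratory chain passes electrons from NADH (complex I) and succinate (complex II) through ubiquinone to complex III, by cytochrome c to complex IV and from there to oxygen, while complexes I, III and IV pump protons across the inner mitochondrial membrane. The ATP synthase uses the returning protons to make ATP. All but a few of the subunits are encoded in the nucleus, translated in the cytosol and imported, and a further set of nuclear genes codes for assembly factors that insert metals, haem and flavin and join the modules. RBFOX2 is an RNA-binding protein that recognises the hexamer UGCAUG, mostly in introns and 3′ untranslated regions (3′ UTRs), and APOBEC1 prefers a cytosine that follows A or U.

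The tables listed 121930 sites in 10199 genes for the anti-RBFOX2 library and 103684 sites in 10182 genes for the enzyme-only control, each with the number of converted reads and the number of reads of its gene. Positions listed in both libraries (12573 in all, 224 in the respiratory chain genes) were set aside as shared except where stated. The remaining 109357 and 91111 sites were the library totals used to scale ratios. Every listed position had a converted fraction above 0.002 of the gene's reads, so a gene with 500 or more reads shows no site with 1 converted read, and an unlisted position may still hold a few converted reads. Of the marker genes of the HEK293 line that were looked up, KRT18 and NEFM were listed in both libraries, VIM in the anti-RBFOX2 library alone (1367 reads), KRT8 and PAX2 in the enzyme-only control alone (23 and 3 reads), and LHX1 in neither. None of the 6 markers of mature nephron cells (UMOD, AQP2, NPHS1, SLC12A1, SLC34A1 and CUBN) was listed. For the respiratory chain genes the median number of reads was 334 in the anti-RBFOX2 library and 320.5 in the enzyme-only control, against 96 and 87 over all listed genes.

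The sequences below show where the sites of the 2 libraries fell around UGCAUG in NDUFV2 and UQCRH, the 2 genes with the most RBFOX2 sites near this hexamer. They are given 5′ to 3′ as RNA from hg38, with UGCAUG and each cytosine listed in that library alone in capitals. The first pair covers part of a coding exon of NDUFV2, at chr18:9122585-9122681 on the plus strand. The exon begins upstream of this stretch and held 16 and 2 unshared sites in all. The second pair covers coding sequence in an exon of UQCRH at chr1:46310252-46310312 on the plus strand.
NDUFV2, anti-RBFOX2 library: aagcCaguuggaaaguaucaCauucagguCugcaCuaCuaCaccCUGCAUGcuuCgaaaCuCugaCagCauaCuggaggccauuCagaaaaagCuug
NDUFV2, enzyme-only control: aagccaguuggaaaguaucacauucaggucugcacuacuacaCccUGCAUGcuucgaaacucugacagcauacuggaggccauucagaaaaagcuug
UQCRH, anti-RBFOX2 library: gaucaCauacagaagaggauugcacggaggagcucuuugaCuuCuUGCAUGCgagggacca
UQCRH, enzyme-only control: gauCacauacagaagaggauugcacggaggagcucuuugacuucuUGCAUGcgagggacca

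NDUFV2 codes for a core iron-sulfur subunit of the NADH-oxidising arm of complex I. In the 97 bases shown it held 15 sites in the anti-RBFOX2 library and 1 in the enzyme-only control, at 387 and 339 reads of the gene. The 15 sites lay on both sides of the hexamer, from 41 nt upstream to 43 nt downstream, and the nearest was the base directly before it. They carried 25 converted reads in all, with 1 to 3 converted reads each and 8 sites at 2 or more. The single enzyme-only site, 3 nt upstream of the hexamer, carried 1 converted read. Within 50 nt of the hexamer thus lay 15 of the 34 unshared NDUFV2 sites of the anti-RBFOX2 library (44.1%, interval 27.2 to 62.1) and 1 of the 21 of the enzyme-only control (4.76%, interval 0.12 to 23.8), whereas 14.1% of all exonic cytosines of the gene lie that close. NDUFV2 is shown because it had the most RBFOX2 sites near the hexamer, so these shares are a description of a chosen gene. Outside the window the gene held 19 and 20 sites. The hexamer is in 6 of the 8 isoform models of the locus. GENCODE names 1 pseudogene after NDUFV2, and the assignment of long reads between them was not examined.

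UQCRH codes for the hinge protein of complex III, which sits beside cytochrome c1. It held 5 sites near its hexamer in the anti-RBFOX2 library and 1 in the enzyme-only control, at 334 and 356 reads. The RBFOX2 sites carried 10 converted reads, of which 4 were at the position 40 nt upstream and 3 at the position 2 nt upstream of UGCAUG. One further site was the cytosine inside the hexamer itself and another the base directly after it, each with 1 converted read. The enzyme-only site, 42 nt upstream, had 1 converted read. Outside this stretch UQCRH also had more sites in the anti-RBFOX2 library, with 19 unshared sites in all against 5. A near-identical gene (UQCRHL) and 4 pseudogenes named after UQCRH exist, so reads of these copies may be split or merged by the authors' mapping.

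**Figure D1:**
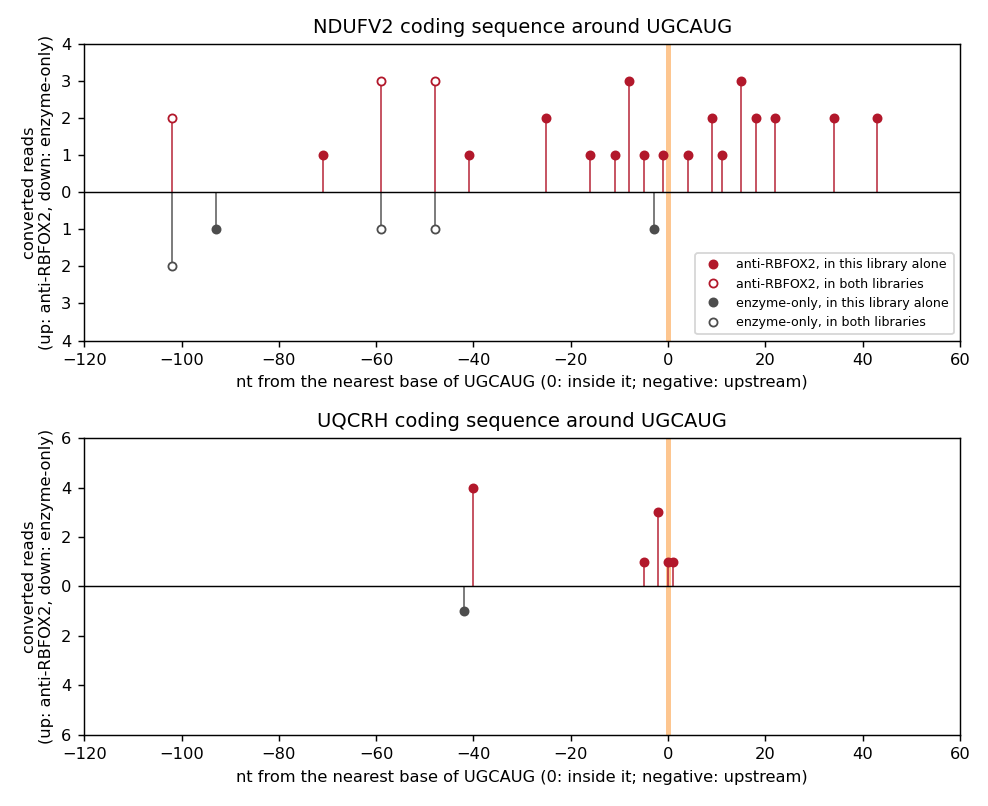
Converted reads at each listed site of NDUFV2 and UQCRH against the distance in nt from the nearest base of UGCAUG, with the anti-RBFOX2 library above and the enzyme-only control below the axis. Filled points were listed in 1 library alone and open points in both, and NDUFV2 shows 15 filled RBFOX2 points within 50 nt against 1 filled enzyme-only point.

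Other hexamers gave fewer sites. The exons of the 90 listed genes held 57 copies of UGCAUG in 43 genes (47.8% of the genes, against 51.3% of all 10116 listed genes with an isoform model). Within 50 nt, 42 of the 57 had no unshared site in either library, 5 had more sites in the anti-RBFOX2 library, 8 had fewer and 2 had equal numbers. Exons of any isoform model counted, and the reads that cover a hexamer were not known. Some hexamers without a site were in few models, as in ATP5F1B (1 of 27) and NDUFA10 (1 of 17). Others were in most, as in UQCRC1 (13 of 18 for 1 copy) and COX17 (4 of 4). The same exonic stretches were searched in both libraries. A hexamer with no site is one at which nothing passed the listing minimum, not one shown to be unbound or unedited.

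Further hexamers with RBFOX2 sites of 2 or more converted reads are shown because the edited bases sit close to the hexamer. They are in COX11 (chr17:54964721-54964749, minus strand, coding), NDUFB10 (chr16:1961246-1961289, plus strand, coding) and SDHA (chr5:256473-256502, plus strand, 3′ UTR), with UGCAUG and the RBFOX2 sites in capitals. The enzyme-only sites of COX11 and NDUFB10, described next, lie upstream of these windows, and so are not shown.
COX11, anti-RBFOX2 library: augUGCAUGcaaguCuccaguggaaCuuu
NDUFB10, anti-RBFOX2 library: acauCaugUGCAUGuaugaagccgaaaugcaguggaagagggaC
SDHA, anti-RBFOX2 library: cucaUGCAUGuguccaugucauaaCugucu

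COX11, an assembly factor that delivers copper to complex IV, had 2 RBFOX2 sites with 3 and 2 converted reads at 17 and 6 nt downstream, and 2 enzyme-only sites with 2 and 1 converted reads at 26 and 50 nt upstream. NDUFB10, an accessory subunit of complex I, had 2 RBFOX2 sites of 3 converted reads each and 1 enzyme-only site of 3 converted reads 26 nt upstream, at 1054 and 1153 reads of the gene, which is too few to set them apart. SDHA, the flavoprotein of complex II, had 2 RBFOX2 sites of 2 converted reads each at 15 and 36 nt downstream and 0 in the enzyme-only control, at 575 and 636 reads. SDHAF1, an assembly factor for the iron-sulfur subunit of complex II, had 1 RBFOX2 site of 2 converted reads directly before the hexamer and 2 enzyme-only sites of 1 converted read each.

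At other hexamers the numbers were too small to set the libraries apart. COX7A2L, a factor that joins complexes III and IV, had 4 RBFOX2 sites and 3 enzyme-only sites near the UGCAUG of its 3′ UTR. NDUFA4, a subunit assigned to complex IV, had 2 and 4 near a 3′ UTR copy. UQCRB, a small subunit of complex III, had no UGCAUG in the exons of its isoform models. It had 1 RBFOX2 site of 2 converted reads and no enzyme-only site within 50 nt of a genomic copy outside them.

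Over all respiratory chain genes, 38 of 929 exonic RBFOX2 sites lay within 50 nt of UGCAUG (4.09%, interval 2.91 to 5.57) and 29 of 823 enzyme-only sites (3.52%, interval 2.37 to 5.02). Distances were genomic, to the nearest UGCAUG on the same strand, whether or not that copy lay in an exon. The share among all exonic cytosines of the same loci, measured in the same way and weighted by their sites, was 2.18% and 2.44%. The ratio of observed to expected share was 1.88 (1.34 to 2.56) in the anti-RBFOX2 library and 1.44 (0.97 to 2.05) in the enzyme-only control, and these 2 intervals overlapped. Over all listed genes the ratios were 1.53 (1.48 to 1.57) and 0.95 (0.91 to 0.99). NDUFV2 held 15 of the 38 RBFOX2 sites. Without it, which is an alternative chosen after seeing the data, the ratio was 1.49 (0.95 to 2.22) in the anti-RBFOX2 library and 1.63 (1.09 to 2.34) in the enzyme-only control, so the order of the libraries turned. The higher ratio of the anti-RBFOX2 library in these genes thus rested on 1 gene. Among sites with at least 2 converted reads, 20 of 313 RBFOX2 sites (6.39%) and 3 of 160 enzyme-only sites (1.88%) lay within 50 nt, with ratios of 2.72 (1.68 to 4.13) and 0.87 (0.18 to 2.50).

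**Figure D2:**
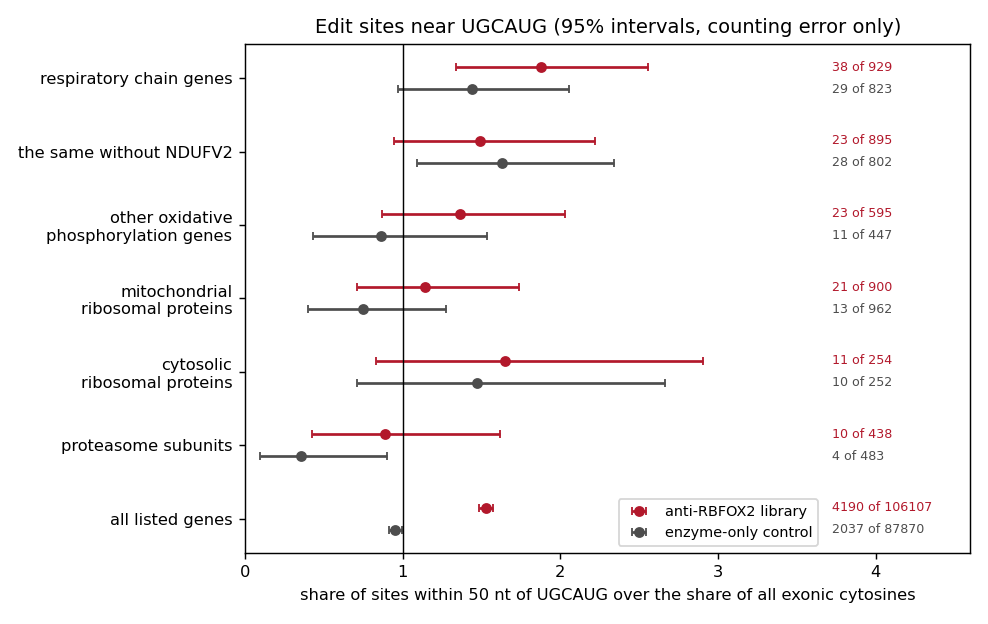
Share of edit sites within 50 nt of UGCAUG divided by the share of all exonic cytosines of the same loci, with 95% intervals, for the respiratory chain genes and other gene groups in both libraries. The RBFOX2 point of the respiratory chain genes lies at 1.88 and falls to 1.49 without NDUFV2, and the counts of sites stand on the right.

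The sites with the most converted reads lay far from any UGCAUG. The following 30-base windows of 3′ UTRs are shown because each is centred on 1 of the sites with the most converted reads of its gene in the anti-RBFOX2 library. Capitals mark the cytosines listed in that library alone. All are on the minus strand. The CYCS windows are at chr7:25123304-25123333, chr7:25123435-25123464 and chr7:25123321-25123350, in this order, the ATP5MC3 window is at chr2:175178273-175178302 and the SDHB window at chr1:17018798-17018827.
CYCS, 12 converted reads: ggggaaauugcuucaCuguCuuagaaccaa
CYCS, 12 converted reads: aaagauaugauuagaCuucguuaguaaugu
CYCS, 11 converted reads: gaauauauuuaaauaCuggggaaauugcuu
ATP5MC3, 10 converted reads: uuguuugccauguaaCaaauuacugcuuga
SDHB, 7 converted reads: uaucuaauuugaguuCcuuuaaagaucuug
At each of them the central cytosine followed A or U, and no UGCAUG was within 50 nt.

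CYCS codes for cytochrome c, the small haem protein that carries electrons from complex III to complex IV. It had 21 unshared sites in the anti-RBFOX2 library and 4 in the enzyme-only control, at 2112 and 1808 reads, and 20 and 2 of them were in the 3′ UTR. The 20 RBFOX2 sites spread over 655 nt, from 26 to 680 nt after the stop codon, with 167 converted reads in all and converted fractions from 0.237% to 0.805%. All 21 RBFOX2 sites followed A or U. The 2 enzyme-only sites of the 3′ UTR had 4 converted reads each. A further 11 shared positions of the 3′ UTR had 123 converted reads in the anti-RBFOX2 library and 82 in the enzyme-only control and median fractions of 0.521% and 0.442%. The listing minimum was 5 converted reads in the anti-RBFOX2 library and 4 in the enzyme-only control, so it did not favour the anti-RBFOX2 library, and the scaled log2 ratio of unshared sites was 1.99 (0.56 to 4.13). At a minimum of 5 in both libraries it was 3.48 (1.40 to 9.40), from 21 and 1 sites. Both ratios leave out the 14 CYCS positions listed in both libraries. These were 40% of its anti-RBFOX2 positions and 77.8% of its enzyme-only positions. The nearest UGCAUG was over 5 kb away from the 3′ UTR sites listed here. GENCODE names 42 pseudogenes after CYCS, and reads of processed copies were not separated here.

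**Figure D3:**
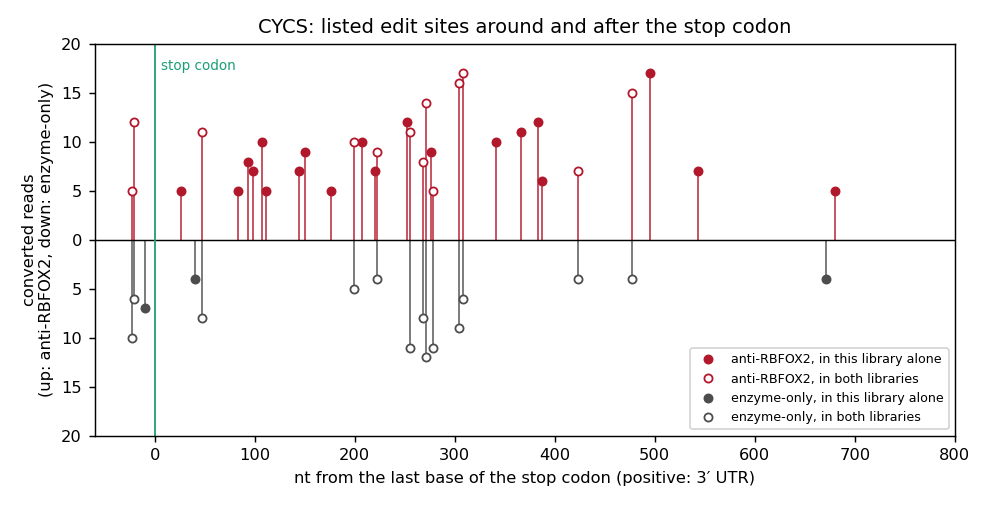
Converted reads at each listed site of CYCS against the genomic distance in nt from the last base of the stop codon, with the anti-RBFOX2 library above and the enzyme-only control below the axis. Filled RBFOX2 points (in that library alone) run along the whole 3′ UTR from 26 to 680 nt, while the filled enzyme-only points there are 2, and the open points (in both libraries) lie among them.

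In all, the respiratory chain genes held 932 unshared sites in the anti-RBFOX2 library and 831 in the enzyme-only control. Scaled by the library totals, the log2 ratio was -0.10 (-0.23 to 0.04), and with the same minimum of converted reads in both libraries (914 and 712 sites) it was 0.00 (-0.14 to 0.15). Both intervals included 0, so for the genes as a group no difference from the library totals was detectable. Before scaling, more sites were listed in the anti-RBFOX2 library for 44 genes, fewer for 35 and equal numbers for 11. The library totals themselves were 109357 and 91111 sites, and the same split over all listed genes is not given. The split is therefore not read as a lean of these genes towards either library.

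Single genes departed from this. Of the 35 genes with at least 20 unshared sites, 7 were over 2-fold higher in the anti-RBFOX2 library (ATP5PB, COX7A2L, CYCS, NDUFA10, NDUFB6, NDUFV3 and UQCRH) and 7 were over 2-fold lower (among them COX11, NDUFA4, NDUFA7, NDUFAB1, NDUFAF1 and NDUFS1). These are 20% each way, against a background of 16.8% higher and 14.6% lower among the 3604 listed genes with as many sites, so the shares were near the background. At the same read minimum the background was 15.7% higher and 13.4% lower, and of 32 genes 7 were higher and 5 lower. The same 7 genes were higher under both settings, whereas 4 of the lower genes (NDUFA4, NDUFA7, NDUFAF1 and NDUFS1) remained. Shared positions were left out in both settings. With them kept, 4 of 43 genes were over 2-fold higher (9.3%, against 13.6% of all genes), so not all 7 stayed higher. Lower by over 2-fold were then 5 (11.6%, against 12.5%).

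**Figure D4:**
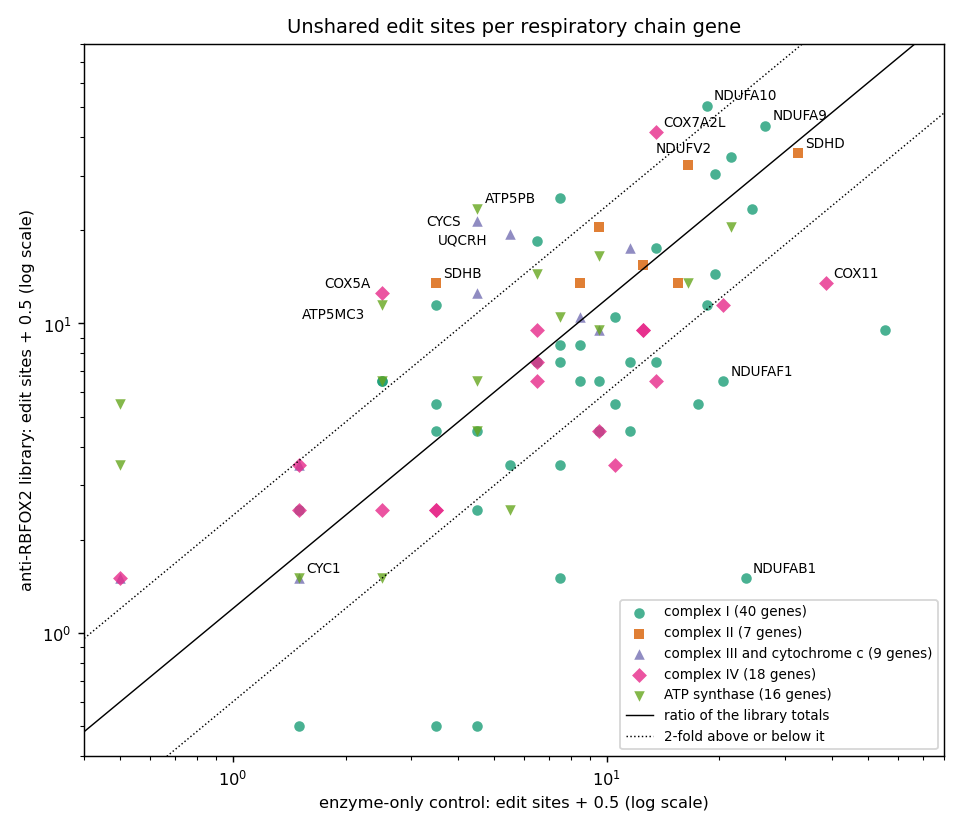
Unshared edit sites of each of the 90 listed genes in the anti-RBFOX2 library (vertical axis) and the enzyme-only control (horizontal axis), both plus 0.5 on log scales, with symbols for the complexes. The solid line is the ratio of the library totals and the dotted lines are 2-fold above and below it, and CYCS, ATP5PB and COX7A2L lie above the upper line while COX11 and NDUFAB1 lie below the lower one.

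Complex I subunits held 368 and 388 sites over 32 listed genes, a scaled log2 ratio of -0.34 (-0.55 to -0.13). At the same read minimum it was -0.14 (-0.36 to 0.08), so the interval then included 0. NDUFA10, an accessory subunit, had the most sites in the anti-RBFOX2 library, with 50 against 18 at 420 and 381 reads and a scaled log2 ratio of 1.19 (0.41 to 2.08). Its 3′ UTR held 24 of these sites against 3. NDUFV3, an accessory subunit of the NADH-oxidising arm, had 25 and 7 sites at 264 and 234 reads (interval of the log2 ratio 0.32 to 3.03), with 10 and 0 in the 3′ UTR. NDUFA9, an accessory subunit near the ubiquinone site, had 43 and 26 sites (0.45, -0.27 to 1.22), which is within counting error of the library totals. NDUFV2 had 34 and 21 sites in all (0.42, -0.39 to 1.29).

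Other complex I genes had fewer sites in the anti-RBFOX2 library. NDUFAB1, the mitochondrial acyl carrier protein, had 1 and 23 sites at 515 and 486 reads, with log2 ratios of -4.23 and, at the same minimum, -2.68 from 1 and 7 sites. NDUFA7, an accessory subunit with 213 and 231 reads and a minimum of 1 read in both libraries, had 5 and 17 sites (-1.93, -3.82 to -0.53). NDUFS1, the core subunit that carries several iron-sulfur clusters, had 7 and 13 sites at 138 and 120 reads (-1.11, -2.72 to 0.27). The assembly factors of complex I together held 44 and 56 sites over 8 genes (-0.61, -1.21 to -0.02), with NDUFAF1 at 6 and 20 sites and 79 and 75 reads (-1.92, -3.61 to -0.63).

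Complex II subunits held 81 and 52 sites over 4 genes (0.37, -0.14 to 0.91), and no gene of the complex was beyond 2-fold among those with at least 20 sites. SDHB, the iron-sulfur subunit, had 13 and 3 sites at 836 and 674 reads (1.68, -0.01 to 4.30), of which 6 and 2 were in the 3′ UTR. SDHC and SDHD are the membrane anchors. SDHC had 20 and 9 sites at 801 and 642 reads (0.85, -0.31 to 2.21) and SDHD had 35 and 32 at 246 and 263 reads (-0.14, -0.87 to 0.60). SDHD also had 16 positions listed in both libraries. SDHA had 13 and 8 sites (0.40, -0.94 to 1.91). The 3 assembly factors held 60 and 43 sites (0.21, -0.37 to 0.82).

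Complex III subunits held 72 and 39 sites over 8 listed genes (0.61, 0.04 to 1.22), and 71 and 30 at the same read minimum (0.87, 0.25 to 1.55). The largest differences in number were those of UQCRH (19 and 5 sites, 1.56, 0.19 to 3.44) and UQCRB (12 and 4 sites, 1.21, -0.40 to 3.41). CYC1, the cytochrome c1 subunit, was among the 5 genes with the most reads, 2035 and 1710, and had 1 site in each library with 5 converted reads. The core protein UQCRC1 had 3 and 1 sites at 1241 and 1062 reads. UQCRFS1, the Rieske iron-sulfur protein, had 9 and 9 sites at 1000 and 886 reads, where the listing minimum was 3 converted reads in the anti-RBFOX2 library and 2 in the enzyme-only control. At 3 in both it had 9 and 0 sites.

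Complex IV subunits, with COX7A2L counted among them by its symbol, held 106 and 87 sites over 10 genes (0.02, -0.40 to 0.45). The value without COX7A2L is not given. COX7A2L had 41 and 13 sites at 454 and 323 reads (1.36, 0.46 to 2.42), with 25 and 7 in its 3′ UTR. COX5A, a matrix-side subunit, had 12 and 2 sites at 804 and 1029 reads (2.06, 0.15 to 5.52), but the minimum was 2 converted reads in the anti-RBFOX2 library and 3 in the enzyme-only control, and at 3 in both the log2 ratio was 0.13. COX4I1, a core-contacting subunit with 1418 reads in each library, had 1 unshared site in the anti-RBFOX2 library, with 4 converted reads, and 0 in the enzyme-only control. NDUFA4 had 11 and 20 sites at 331 and 408 reads (-1.10, -2.33 to 0.00). The assembly factors of complex IV held 36 and 70 sites over 8 genes (-1.21, -1.84 to -0.62), and 36 and 37 at the same minimum (-0.40, -1.10 to 0.30). COX11 alone lost sites at the higher minimum. With 530 and 460 reads it had 13 and 38 sites (-1.78, -2.84 to -0.87), and at 2 converted reads in both libraries its log2 ratio was 0.94. COX15, which takes part in haem A synthesis, had 3 and 10 sites at 163 and 147 reads (-1.85, -4.50 to -0.04).

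ATP synthase subunits held 144 and 92 sites over 16 genes (0.38, 0.00 to 0.78). ATP5PB, the b subunit of the peripheral stalk, had 23 and 4 sites at 1372 and 1224 reads, and 3 converted reads were needed in either library (2.12, 0.71 to 4.25), and 9 and 1 of them were in the 3′ UTR. ATP5MC3, which codes for the c subunit of the rotating ring, had 11 and 2 sites at 2163 and 2228 reads (1.94, 0.00 to 5.41), with 75 and 10 converted reads. The 6 RBFOX2 sites of its 3′ UTR lay within 124 nt. Of the other 2 genes of the same c subunit, ATP5MC2 had 20 and 21 sites (-0.33, -1.29 to 0.62), an interval that overlapped that of ATP5MC3. ATP5MC1 had 1 and 1 sites (interval -6.56 to 6.03), too few for a comparison. ATP5F1B, the catalytic beta subunit and the gene with the most reads (3057 and 2699), had 6 and 4 sites, all coding (0.27, -1.75 to 2.59). ATP5F1A, the alpha subunit, had 1 and 2 sites at 1494 and 1341 reads. ATP5PF, a peripheral stalk subunit, had 5 sites in the anti-RBFOX2 library and 0 in the enzyme-only control, and the interval reached from -0.39 upward.

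**Figure D5:**
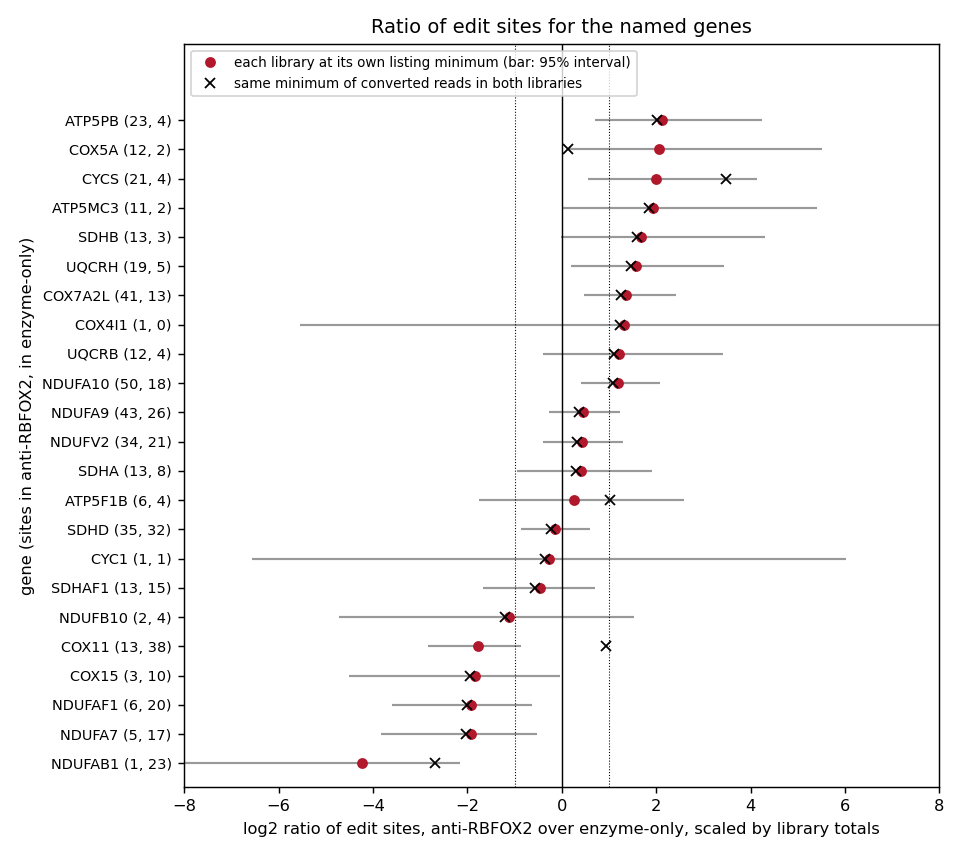
Scaled log2 ratio of unshared edit sites, RBFOX2 over enzyme-only, for 23 named genes (circles, with 95% intervals cut at the axis limits) and the ratio when both libraries had the same minimum (crosses). For most genes the circle and the cross coincide, while COX11 and COX5A move towards or past 0 and CYCS moves up from 1.99 to 3.48.

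The read minimum mattered for genes with many reads. The 57 respiratory chain genes that did not exceed 500 reads in either library, where a single converted read was enough, held 697 and 600 sites (-0.05, -0.21 to 0.11). The 30 genes with more reads in a library held 232 and 226 sites (-0.23, -0.50 to 0.05), and 217 and 112 at the same minimum (0.59, 0.26 to 0.94). Over all listed genes with as many reads the value at the same minimum was 0.64 (0.58 to 0.69), close to that of the respiratory chain genes, so the rise at the same minimum was not particular to them.

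The sites of the 2 libraries also differed in their neighbourhood. In the respiratory chain genes 702 of 932 RBFOX2 sites followed A or U (75.3%, interval 72.4 to 78.1) and 551 of 831 enzyme-only sites (66.3%, interval 63.0 to 69.5), where 48.0% and 46.8% of the cytosines in these loci did. Over all listed genes the shares were 71.7% and 63.9%. Of the RBFOX2 sites with at least 2 converted reads 87.9% followed A or U, and of the enzyme-only sites 82.5%. In the genes that did not exceed 500 reads, 82 of 697 RBFOX2 sites had at least 2 converted reads (11.8%, interval 9.47 to 14.4) and 31 of 600 enzyme-only sites (5.17%, interval 3.54 to 7.25). Over all listed genes with as few reads the shares were 7.18% and 4.35%. The interval of the RBFOX2 share in the respiratory chain genes did not reach the share of all genes, and these genes also had more reads (median 242 against 108 in the anti-RBFOX2 library). The part of depth in that difference was not tested.

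By position, 56.8% of the RBFOX2 sites were coding and 35.5% were in a 3′ UTR (interval 32.4 to 38.7), against 59.6% and 31.4% (interval 28.3 to 34.7) of the enzyme-only sites. Over all listed genes 42.3% and 36.1% were in a 3′ UTR. A position that is coding in any transcript was counted as coding, and counting it as 3′ UTR instead gave 54.2% and 51.1%.

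The coding sites were read through the reference transcript of each gene. Of 510 coding RBFOX2 sites 258 would change the amino acid (50.6%), 231 were synonymous (45.3%) and 21 would make a stop codon (4.12%, interval 2.57 to 6.23). Of 480 coding enzyme-only sites 245 were missense, 213 synonymous (44.4%) and 22 stops (4.58%, interval 2.89 to 6.86). Of all coding cytosines of the same genes, 52.4%, 41.1% and 6.51% would do so. Both stop shares were lower than this in value, with the RBFOX2 interval below it and the enzyme-only interval including it. Over all genes the shares of stops were 6.49% and 5.79%. Among sites with at least 2 converted reads the anti-RBFOX2 library had 10 stops of 176 and the enzyme-only control 1 of 100. Those with the most converted reads in the anti-RBFOX2 library were Q161* in ATP5PB and Q4* in ATP5PF, with 3 each. In the NDUFV2 window around UGCAUG, R143* had 1 converted read and Q153* had 2. The converted fractions were all under 1% at these sites, and no protein was measured.

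The 224 shared positions were 19.4% of the respiratory chain sites of the anti-RBFOX2 library and 21.2% of those of the enzyme-only control, against 10.3% and 12.1% over all listed genes. The shares were 22.2% and 20.5% in the proteasome subunits and 16.0% and 15.2% in the mitochondrial ribosomal proteins. In the cytosolic ribosomal proteins they were 16.2% and 16.3%. A share above that of all genes was thus not particular to the respiratory chain genes. Their median converted fraction was 0.397% and 0.333%. More converted reads were seen in the anti-RBFOX2 library at 84 of them, fewer at 36 and equal numbers at 104, of which 80 had 1 converted read in both. These counts were not scaled by the reads of the genes, and the same split over all listed genes is not given. They are therefore not read as particular to the respiratory chain genes. Above 1% in both libraries were 8 positions, and 1 of them, a synonymous position, was near 48.0% and 45.3%, far from the others. A stop codon would be made at 10 shared positions. R173* in NDUFAF4, an assembly factor of complex I, had 10 of 203 converted reads in the anti-RBFOX2 library (4.93%) and 9 of 258 in the enzyme-only control (3.49%). R124* in NDUFV2, 48 nt upstream of the hexamer, had 3 and 1 converted reads.

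Edited cytosines per 100 exonic cytosines of 1 isoform per gene (editsC, for the isoform with the most cytosines) had a median of 1.57 in both libraries over the 90 genes, and of 0.887 and 0.727 over 10046 genes. The value was larger in the anti-RBFOX2 library for 43 genes (47.8%, against 53.7% of all genes) and lower for 35. Around a straight line through all genes, 11 of the 90 were over 1.5 SD above (12.2%, background 5.94%) and 6 were over 1.5 SD below (background 2.43%). Those above were ATP5PB, COX5A, COX7A2L, CYCS, NDUFA5, NDUFA9, NDUFB6, NDUFV2, NDUFV3, UQCRB and UQCRH, and those below included NDUFA12, NDUFA7, NDUFAB1, NDUFAF1 and NDUFB1. Both shares were above the background. The respiratory chain genes were shorter in exonic cytosines (median 535.5 against 714) and had more reads than all genes, and the part of these in both shares was not tested.

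Other gene groups gave the scale of these values. The mitochondrial ribosomal proteins held 902 and 963 sites (-0.36, -0.49 to -0.23), and 894 and 727 at the same minimum (-0.06, -0.20 to 0.08). The proteasome subunits held 438 and 484 (-0.41, -0.60 to -0.22), and 0.18 (-0.04 to 0.39) at the same minimum. The cytosolic ribosomal proteins held 254 and 252 (-0.25, -0.51 to 0.01), and -0.38 (-0.65 to -0.11) at the same minimum. At that minimum the interval of the respiratory chain genes overlapped those of the mitochondrial ribosomal proteins and of the proteasome and just overlapped that of the cytosolic ribosomal proteins. Other nuclear genes of oxidative phosphorylation (31 listed of 33 with a locus, among them assembly factors and electron transfer flavoproteins) held 595 and 447 sites (0.15, -0.03 to 0.33), and 593 and 376 at the same minimum (0.30, 0.11 to 0.49). Of 21 with at least 20 sites, 2 were over 2-fold higher and 2 lower. Chosen after their values were seen, TFAM, the main packaging and transcription factor of mitochondrial DNA, had 63 and 14 sites, and HIGD1A, a small inner membrane protein, 39 and 8. The 2 lower ones were ATPAF1, an assembly factor of the ATP synthase, with 11 and 41 sites at 558 and 462 reads, and TIMMDC1, an assembly factor of complex I, with 12 and 36 at 571 and 412 reads. In both of these more converted reads were needed in the anti-RBFOX2 library for a site to be listed. Of the 13 protein-coding genes of mitochondrial DNA, MT-ND1 alone had unshared sites, 4 of 1 converted read each in the enzyme-only control and none in the anti-RBFOX2 library.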

How the data were processed

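Each library's table, as deposited by the authors, listed a position, strand, the count of converted reads, the count of reads of the whole gene, their ratio as a fraction and an unused score. The authors sequenced full-length cDNA on a PacBio instrument, mapped it to hg38, built isoform models and ran their own edit caller. Their later removal of known variants was not repeated here. Loci were assigned with GENCODE 44 (pysam, numpy 2.4.6, pandas 2.3.3). A site is a distinct position and strand, and 4 of 2211 listed entries lay on the strand opposite to their locus. Ratios of site counts used a pseudocount of 0.5 and exact intervals (scipy 1.17.1). With 1 library per group no test between conditions was possible. The genes, lists and comparisons were chosen with earlier results of these data known. Named genes were those with the most sites (6), the highest and lowest ratios (6 each, at least 10 sites), the most reads (5), those with an RBFOX2 site of at least 2 converted reads within 50 nt of UGCAUG, and CYC1, CYCS, SDHA and SDHB, with others of their complex for comparison. The scripts were tested on simulated data. Alternatives changed the listing minimum, shared sites, window, hexamer and region order. A result of the naming rule and one sequence window are not reported here.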

Additional observations from a re-analysis of the deposited data

How the results depend on the processing

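Of 53 recomputed values, 31 stayed within the main interval or within 1.5 times a count. Among single genes, COX11 turned from -1.78 (-2.84 to -0.87) to 0.94 (-0.56 to 2.86) at the same read minimum. With at least 2 converted reads the ratio of sites rose from -0.10 to 0.11. With shared sites kept, 4 of 43 genes were over 2-fold higher (9.3%, against 13.6% of all genes) and 5 lower (11.6%, against 12.5%). At 10 sites or more, 12 of 62 were higher (19.4%, against 19.4% of all genes) and 14 lower (22.6%, against 17.2%). The anti-RBFOX2 share near UGCAUG over expected was 1.28 at 200 nt, 2.72 with at least 2 converted reads and 1.11 for GCAUG, and the enzyme-only one 0.87 with at least 2 converted reads. With 3′ UTR before coding sequence, 54.2% and 51.1% of sites were in the 3′ UTR, and the enzyme-only share was 35.2% with shared sites and 26.3% with at least 2 converted reads. The share after A or U was 87.9% and 82.5% with at least 2 converted reads and 78.5% and 71.8% with shared sites. Sites of 2 or more converted reads made up 11.8% and 5.17% in genes of at most 500 reads and 38.2% and 25.1% with shared sites. Median editsC was 2.94 and 2.60 for the isoform of median cytosine number. The cause was not tested. No paired analysis was possible because each group has 1 library and the labels pair nothing. Depth limits every gene with few sites.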
